A study of Mus musculus with 6 samples.

Results

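Klrb1c and Klrb1f are 2 genes of the mouse NKR-P1 family, chosen by name from the 32285 features counted in single T cells of the mouse kidney. Klrb1c encodes NKR-P1C, the antigen that NK1.1 antibodies bind in C57BL/6 mice, and Klrb1f encodes the related receptor NKR-P1F. The data were 6 droplet libraries, with a control group and an ischemia reperfusion injury (IR) group that each gave a library of CD4 T cells, of CD8 T cells and of T cells with neither coreceptor (double negative, DN). All groups were male wild type C57BL/6J mice of 7 to 8 weeks, with no transgene or deletion. In the IR group both renal pedicles were clamped for 30 min and kidneys were taken at about 24 h, and in every group the cells were flow sorted as CD45+ and TCRβ+, and then as CD4+, CD8+ or neither. How many mice went into each library is not given in the sources used here, so each group counted as 1 sample and no difference between groups could be tested.

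NKR-P1 receptors are C-type lectin-like proteins of natural killer (NK) cells and of some T cells. They are encoded in the NK gene complex, next to the Clec2 genes for the Clr proteins that several of them bind. NKR-P1C signals through the Fc receptor γ chain, the product of Fcer1g, and NKR-P1F binds Clr-g, the product of Clec2i. NK1.1 is also the classical surface marker of NKT cells, and part of the αβ DN T cells of the mouse carry it.

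In the GRCm38 build with GENCODE M21 models, both genes lay on chromosome 6. Klrb1c (ENSMUSG00000030325) occupied chr6:128778485-128789215 on the minus strand, with 2961 exonic and 7770 intronic bases, and its main transcript had 6 exons. Klrb1f (ENSMUSG00000030154) occupied chr6:129045901-129057464 on the plus strand, with 2025 exonic and 9539 intronic bases, and its main transcript also had 6 exons. The models were 256685 bases apart, with Klrb1b, Clec2i and Clec2g between them. Of 2533 windows of 91 bases, the read length, in the main Klrb1c transcript, 0 occurred in the main transcript of Klrb1f. By contrast, 18 of these windows also occurred in that of Klrb1a, and Gm44511, a model that was not in the count table, overlapped 413 exonic bases of Klrb1c.

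The 250 bases before each RefSeq start (GRCm38.p6) are shown because the genes had different patterns across the libraries. The Klrb1c window was chr6:128788642-128788891 on the minus strand and the Klrb1f window was chr6:129045651-129045900 on the plus strand. The Klrb1c window lay inside the GENCODE model of that gene, whose 5′ end is at 128789215, because the RefSeq start is further downstream. The Klrb1f window ended just before its GENCODE model, so the windows are not placed alike on the models. Capitals mark the longest run of bases that both windows contained, 10 bases long, which began 10 bases before the start of Klrb1c and 49 bases before that of Klrb1f.
Klrb1c: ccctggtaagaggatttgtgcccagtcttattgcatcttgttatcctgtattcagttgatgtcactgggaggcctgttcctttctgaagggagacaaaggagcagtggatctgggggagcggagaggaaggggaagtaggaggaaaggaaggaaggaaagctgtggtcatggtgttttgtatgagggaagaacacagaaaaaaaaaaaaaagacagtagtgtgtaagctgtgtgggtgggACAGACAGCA
Klrb1f: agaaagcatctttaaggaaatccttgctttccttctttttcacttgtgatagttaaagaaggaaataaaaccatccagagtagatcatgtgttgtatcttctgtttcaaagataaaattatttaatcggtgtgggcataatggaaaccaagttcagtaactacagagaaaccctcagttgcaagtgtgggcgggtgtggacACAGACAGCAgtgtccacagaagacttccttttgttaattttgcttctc
On either strand, the RUNX motif TGTGGT matched 1 time in the Klrb1c window and 0 times in the Klrb1f window, and 14.05% of 32851 promoter windows of this length held it. The E-box CANNTG matched 1 time for Klrb1c and 4 times for Klrb1f, and 66.22% of windows held it. The T-box motif GTGTGA matched neither window and was in 12.29% of all. These matches describe letters only. The neighbour Klrb1a shared a run of 41 bases with the Klrb1c window, against the 10 bases shared with Klrb1f.

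After the filters, 48020 cells remained of 54039 barcodes, between 4075 and 10128 in each library. Libraries of the IR group were shallower, with a median of 936 to 1425.5 unique molecular identifiers (UMIs) retained in a cell against 4960 to 6564 in the control group, and their matrices came from another version of the counting software. The effects of injury, depth and software thus cannot be told apart here. As counts per 10⁶ retained UMIs (CPM), Cd4 reached 211 in the control and 146 in the IR CD4 library and at most 0.461 elsewhere. Cd8b1 reached 1372 CPM in control and 1084 CPM in IR CD8 T cells but 1.33 and 2.26 CPM in DN T cells, and Trac was between 726 and 979 CPM everywhere, so the libraries carried the genes of their sort. Trdc, the constant gene of the δ chain, was between 2.03 and 5.60 CPM. In each library between 134 and 189 barcode sequences were also found in another library of its condition.

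Klrb1c had its highest level in DN T cells of both groups and its lowest in CD8 T cells. In the control group it was at 209 CPM in DN T cells, 48.7 CPM in CD4 T cells and 6.17 CPM in CD8 T cells. After IR the levels were 227 CPM in DN, 69.7 CPM in CD4 and 8.15 CPM in CD8 T cells. The exact 95% Poisson intervals of the DN values were 205 to 213 CPM in the control group and 213 to 242 CPM in the IR group, and those of the CD8 values, 5.47 to 6.94 and 6.10 to 10.7 CPM, overlapped. These intervals, like all intervals given here, cover counting error only and say nothing of the spread between mice.

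The control DN library held 4.29 times the Klrb1c level of the control CD4 library, a log2 ratio of 2.10 with an interval of 2.04 to 2.16. At least 2-fold higher levels, with 10 CPM or more in the higher library, were found for 1.37% of the genes compared between these libraries. Over control CD8 T cells the ratio was 33.9-fold, where 3.55% of genes were at least 2-fold higher in DN T cells. In the IR group the DN to CD4 ratio was 3.26-fold and the DN to CD8 ratio 27.9-fold, beside 5.33% and 7.53% of genes at least 2-fold higher. Klrb1c was also higher in CD4 than in CD8 T cells, by 2.98 on the log2 scale in the control group and 3.10 in the IR group, where 2.61% and 3.52% of genes were at least 2-fold higher.

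Klrb1f followed the same order of subsets with smaller ratios. In the control group it was at 33.7 CPM in DN, 18.5 CPM in CD4 and 10.6 CPM in CD8 T cells. In the IR group it was at 18.7 CPM in DN, 7.49 CPM in CD4 and 4.46 CPM in CD8 T cells. The interval of the IR DN value, 14.9 to 23.2 CPM, contained the control CD4 level, and the intervals of IR CD4 and IR CD8 T cells, 6.19 to 8.98 and 2.99 to 6.40 CPM, overlapped. The levels of Klrb1c and Klrb1f were not set against each other, because reads of this chemistry come from the 3′ end and capture differs between genes.

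Control DN T cells had 1.82 times the Klrb1f level of control CD4 T cells, with a log2 ratio of 0.86 (0.75 to 0.97), which did not reach 2-fold. Over control CD8 T cells the ratio was 3.18-fold. After IR, DN T cells were 2.50-fold above CD4 and 4.20-fold above CD8 T cells. Between CD4 and CD8 T cells the log2 ratio was 0.81 in the control group and 0.75 in the IR group, both under 2-fold.

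**Figure D1:**
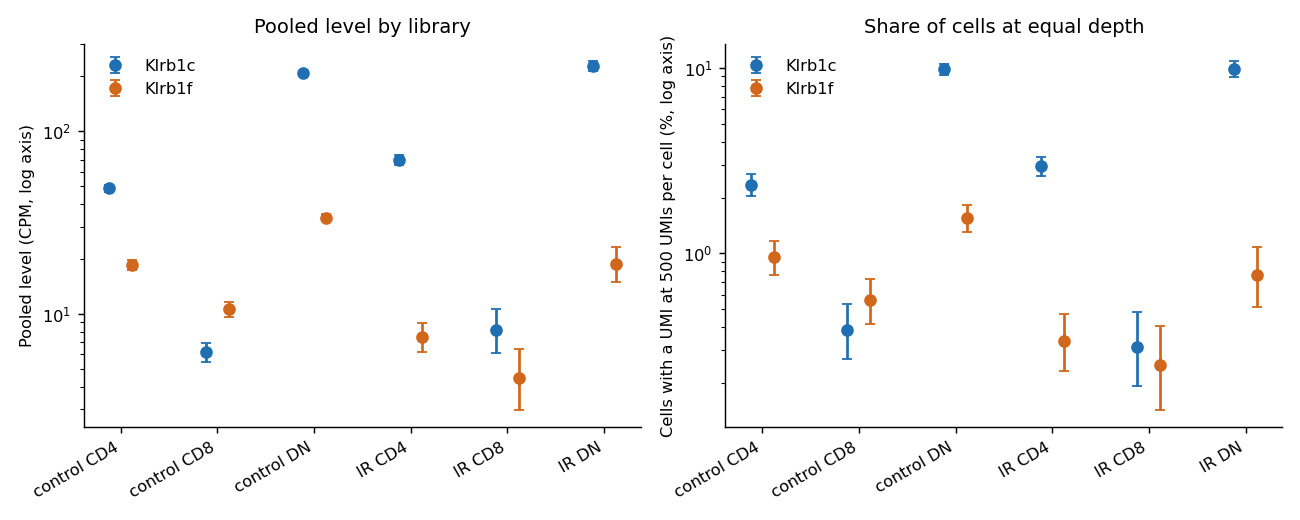
The left panel plots the pooled level of Klrb1c (blue) and Klrb1f (orange) in the 6 libraries as CPM on a log axis, and the right panel the percentage of cells with a UMI after each cell was thinned to 500 UMIs. Points are libraries and bars are exact 95% counting intervals. Klrb1c was highest in the DN libraries, at 209 and 227 CPM, and Klrb1f lay lower in each IR library than in the control library of the same subset.

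Between the groups, the 2 genes differed in direction within CD4 T cells. Klrb1c was 0.52 higher on the log2 scale in IR CD4 T cells than in control CD4 T cells (0.41 to 0.62), while Klrb1f was lower, with a log2 ratio of -1.31 (-1.60 to -1.03). In CD8 T cells the Klrb1c ratio was 0.40 (-0.05 to 0.83), an interval that contained 0, and the Klrb1f ratio was -1.25 (-1.84 to -0.71). In DN T cells the Klrb1c ratio was 0.12 (0.03 to 0.21), a fold of 1.09, and the Klrb1f ratio was -0.85 (-1.18 to -0.53), short of 2-fold. With the removed mitochondrial, ribosomal protein and Malat1 counts kept in the totals, the Klrb1c ratio turned to -0.05 in DN and to -0.02 in CD8 T cells, so no direction is given for these.

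The ratios of Klrb1f in CD4 and CD8 T cells reached a 2-fold lower level in the IR group, as 15.0% and 17.1% of all genes compared did, and as 10.5% did in DN T cells. The median gene also had a log2 ratio below 0, at -0.26 in CD4, -0.37 in CD8 and -0.25 in DN T cells. Relative to genes of like intron length, the Klrb1f ratios were -1.31 in CD4, -1.03 in CD8 and -0.76 in DN T cells, and the Klrb1c ratio in CD4 T cells was 0.40. Scaling does not enter the difference between the genes within a library pair. The log2 ratio of Klrb1c exceeded that of Klrb1f by 1.83 in CD4, 1.65 in CD8 and 0.97 in DN T cells. Fewer carriers and fewer transcripts in each carrier cannot be told apart in these pooled levels.

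In single cells of the control group, Klrb1c UMIs were found in 44.7% of DN T cells (3978 of 8903), 11.7% of CD4 T cells (1078 of 9240) and 1.56% of CD8 T cells (145 of 9300). After IR they were found in 18.6% of DN (759 of 4075), 7.63% of CD4 (773 of 10128) and 0.769% of CD8 T cells (49 of 6374). Klrb1f UMIs were found in 13.5% of DN, 7.45% of CD4 and 4.08% of CD8 T cells of the control group, and in 1.84%, 1.03% and 0.424% after IR. Each share depends on how deeply the cell was sequenced. As a background, barcodes removed because myeloid and B cell UMIs outnumbered those of T cell receptor genes had a Klrb1c UMI in 7 of 257 (2.72%) and a Klrb1f UMI in 3 of 257 (1.17%, 0.241 to 3.37%), at a median of 1239 UMIs. All 7 with Klrb1c came from the DN libraries, 3 of 10 in the control and 4 of 66 in the IR group. The removed barcodes of the CD8 libraries had Klrb1c in 0 of 13 in the control and 0 of 58 in the IR group, which allow up to 24.7% and 6.16%, so the background of single libraries is poorly known. The Klrb1c shares of both CD8 libraries and the Klrb1f shares of the IR CD4 and IR CD8 libraries were below the pooled background. For Klrb1c that background came from the DN libraries only, so it cannot decide about CD8 T cells. No expression is read from these shares, and ratios to these libraries describe counts only. The background was measured at lower depth than the control libraries. With cells thinned to 1000 UMIs the Klrb1f shares were 2.66% in control DN, 2.17% in IR DN, 1.93% in control CD4 and 0.889% in control CD8 T cells. All lay inside the interval of the background, and the last was below its 1.17%. That interval rests on 3 barcodes with Klrb1f, so it is too wide to tell these shares from the background or to equate them. For Klrb1c the control CD4 share at this depth, 4.10%, also lay inside its background interval of 1.10 to 5.53%.

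When all cells were thinned to 500 UMIs, Klrb1c was found in 9.82% of control DN and 9.89% of IR DN T cells, in 2.34% and 2.95% of CD4 T cells, and in 0.387% and 0.314% of CD8 T cells. The share in DN T cells thus differed between the groups before thinning, while after it the intervals overlapped. For Klrb1f the thinned shares were 1.55% and 0.761% in control and IR DN T cells, 0.952% and 0.336% in CD4 T cells, and 0.559% and 0.251% in CD8 T cells. At this depth many carriers go undetected, so the thinned shares follow the pooled levels and are not the shares of all cells that carry a gene.

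Many control DN T cells carried more than a single Klrb1c UMI. Of the 3978 carriers 1212 (30.5%) had 1 UMI and 1315 (33.1%) had 4 or more, the highest count was 18 and the mean was 3.19. Among control CD4 carriers 45.8% had 1 UMI, with a highest count of 16. In IR DN T cells 75.6% of carriers had 1 UMI and the highest count was 6. For Klrb1f, 63.4% of control DN carriers had 1 UMI, 8.13% had 4 or more and the highest count was 13, while in IR DN T cells 90.7% had 1 UMI.

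Cells were then divided by which of the genes they showed. In the control DN library 3534 cells (39.7%) showed Klrb1c only, 761 (8.55%) Klrb1f only, 444 (4.99%) both and 4164 (46.8%) neither, and the last class includes carriers missed at this depth. In the control CD4 library the classes held 1003 (10.9%), 613 (6.63%), 75 (0.812%) and 7549 cells. In the control CD8 library they held 119 (1.28%), 353 (3.80%), 26 (0.280%) and 8802 cells. In the IR DN library 736 cells (18.1%) showed Klrb1c only, 52 (1.28%) Klrb1f only and 23 (0.564%) both, and in the IR CD4 library 756 (7.46%), 87 (0.859%) and 17 (0.168%).

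Klrb1c UMIs were found in a lower share of Klrb1f carriers than of other cells in the control DN library, and in a higher share in the control CD8 and IR CD4 libraries, in each of which the share of 1 of the genes lay below the background. Among the 1205 Klrb1f carriers of the control DN library 36.8% had a Klrb1c UMI (34.1 to 39.6%), against 45.9% of the other cells (44.8 to 47.0%). Deeper cells show more of every gene, and the other cells weighted to the depth of the carriers gave 47.0%. The share was lower in carriers in all 4 depth groups of equal cell number, at 28.4% against 39.0% in the lowest and 39.4% against 49.3% in the highest. With every cell thinned to 500 UMIs the difference was -2.61 percentage points in place of -9.06, with Klrb1c in 10 of 138 carriers.

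In the control CD8 library 26 of 379 Klrb1f carriers had a Klrb1c UMI, or 6.86% (4.53 to 9.89%), against 1.33% of the other cells, and the carriers were higher in all 4 depth groups, with intervals apart only in the deepest one. Thinning left 52 carriers, of which 0 had Klrb1c, too few for a comparison. In the control CD4 library the shares were 10.9% (8.67 to 13.5%) and 11.7%, or 13.7% with the others weighted for depth. Carriers were higher in the second depth group and lower in the rest. Intervals were apart only in the deepest one, at 12.1% (8.41 to 16.6%) against 18.6% (17.0 to 20.4%). In the IR CD4 library 17 of 104 carriers had Klrb1c, or 16.3% (9.82 to 24.9%), against 7.54% of the others, or 9.34% when weighted for depth. Carriers were higher in all 4 depth groups there, with intervals that overlapped in each. In the IR DN library 23 of 75 carriers had Klrb1c, or 30.7% (20.5 to 42.4%), against 18.4% of the others, or 22.6% when weighted for depth. Thinning left 31 carriers, 2 of them with Klrb1c, and a difference of -3.46 in place of 12.3 points, so no direction is given.

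**Figure D2:**
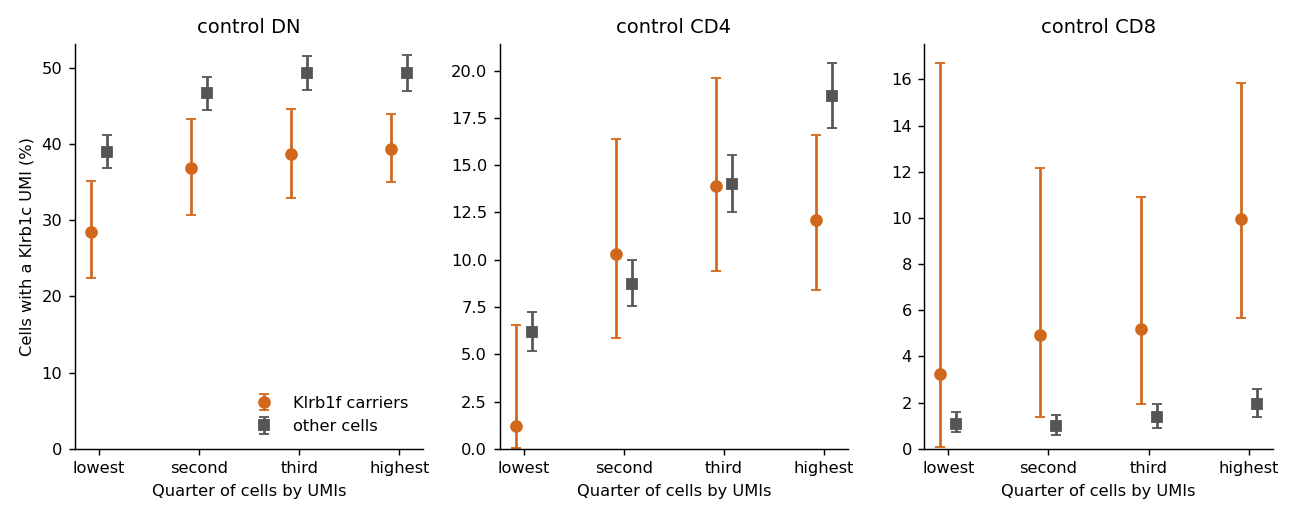
The percentage of cells with a Klrb1c UMI is plotted for Klrb1f carriers (circles) and for the other cells (squares) of 3 control libraries, in 4 equal groups of cells ordered by UMI number; bars are exact 95% intervals and the y axes differ. In control DN T cells carriers lay below the other cells in all 4 groups, in control CD8 T cells above them in all 4, and in control CD4 T cells there was no single direction.

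The cells that carried Klrb1c, Klrb1f or both were next compared with the cells of their own library that showed neither, by the CPM of the summed UMIs of each class. Cells of 1 library are not replicates, so these ratios describe the libraries without a test. Within the control DN library the depth of the classes was similar, at a median of 6628.5 UMIs for Klrb1c only, 7187 for Klrb1f only, 7535.5 for both and 6330.5 for neither. The T cell receptor genes Cd3d, Cd3e, Cd3g, Trac, Trbc1 and Trbc2 summed to 6446, 6996, 6433 and 6558 CPM in the same order. Myeloid markers summed to between 97.2 and 106 CPM, nearly all Cst3, and B cell markers to between 120 and 181 CPM, nearly all Ighm.

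Control DN T cells with Klrb1c only were distinguished by other receptors of the NK gene complex and by the adaptor genes Fcer1g and Tyrobp. The rest of the list of adaptors and kinases is not given for this class, so nothing is read about adaptors as a group. Of 8746 genes that reached 10 CPM in either class, 0.400% were at least 2-fold higher than in cells with neither and 0.343% at least 2-fold lower. Fcer1g, the adaptor through which NKR-P1C signals, was at 290 CPM in Klrb1c-only cells, 74.0 in Klrb1f-only cells, 599 in cells with both and 73.0 in cells with neither. Its log2 ratio over neither was 1.99 for Klrb1c only and 3.04 for both. Fcer1g UMIs were found in 37.2% of Klrb1c-only cells, 13.8% of Klrb1f-only cells, 54.7% of cells with both and 12.6% of the rest. Tyrobp, which encodes the adaptor DAP12 of activating Ly49 and NKG2 family receptors, was at 77.1, 11.5, 215 and 12.1 CPM in the same order.

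Lists were counted over members at 10 CPM or more in the library as a whole, since a gene that passes only through a class must differ there. The list named NKG2 and CD94 held 9 genes, among them Klrg1, which is not of that family. Of the 9 genes 8 passed, and 6 of these were at least 2-fold higher in Klrb1c-only cells while 1 was lower. Their median log2 ratio was 1.34 beside -0.01 over all genes compared. Klrc1, which encodes the inhibitory receptor NKG2A, was at 466 CPM in Klrb1c-only and 180 CPM in cells with neither. Klre1, a partner chain of this family, was at 348 against 95.9 CPM, and Klrk1, which encodes NKG2D, was at 861 against 433 CPM, just under 2-fold. The lower member was Klrg1, a receptor for cadherins on differentiated T cells, at 5.43 against 15.1 CPM. Of the 11 Ly49 genes, receptors for MHC class I, 6 passed and all 6 were higher, with a median log2 ratio of 1.62. Klra9 was at 143 against 33.5 CPM and Klra5 at 98.2 against 24.3 CPM.

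Klrb1f-only cells of the same library did not have these high levels of NKG2 genes. Klrc1 was at 65.3 CPM there, a log2 ratio of -1.46 over neither, and Klrc2, which encodes NKG2C, was at 55.9 CPM against 108 CPM. Of the same 8 NKG2 and CD94 genes 1 was higher, Klrg1 at 55.8 CPM, 2 were lower, and the median log2 ratio was -0.51. Of the 6 Ly49 genes 1 was at least 2-fold higher. At least 2-fold differences from cells with neither were seen for 1.68% of genes upward and 1.03% downward.

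Several coinhibitory receptor genes were higher in the Klrb1f-only cells. Of 7 listed genes 4 were at 10 CPM in the library and 3 of these were at least 2-fold higher, with a median log2 ratio of 1.52 beside -0.04 over all genes. Pdcd1, which encodes PD-1, was at 97.1 CPM in Klrb1f-only cells, 9.23 in Klrb1c-only cells, 18.6 in cells with both and 24.0 in cells with neither. Pdcd1 UMIs were found in 28.5% of Klrb1f-only cells and 4.64% of Klrb1c-only cells. Ctla4, a receptor that competes with CD28 for its ligands, was at 146 CPM in Klrb1f-only, 16.5 in Klrb1c-only and 41.8 in cells with neither. Lag3, which binds MHC class II, and Tigit, a receptor for nectin family ligands, were under 10 CPM in the library as a whole and were not counted, with Lag3 at 14.9 against 3.96 CPM in cells with neither. In Klrb1c-only cells 2 of the 4 coinhibitory genes were lower and none was higher.

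Of 6 genes of naive and recirculating T cells at 10 CPM in the library, 4 were at least 2-fold lower in Klrb1f-only cells and none higher, while in Klrb1c-only cells 1 was higher and none lower. Klf2, a transcription factor that maintains recirculation, was at 72.7 CPM in Klrb1f-only cells, 366 in Klrb1c-only cells, 450 in cells with both and 219 in cells with neither. S1pr1, the receptor for lymph node exit, was at 12.8, 41.5, 42.4 and 28.5 CPM in that order. Il7r, the IL-7 receptor α chain, was at 56.1 CPM in Klrb1f-only cells against 114 CPM in cells with neither. Of 8 cytokine receptor genes at 10 CPM in the library, 3 were lower in Klrb1f-only cells, among them Il18r1 at 119 against 282 CPM. Il23r was at 0.368 CPM in Klrb1c-only cells (9 UMIs) against 12.9 CPM in cells with neither. Of these classes it reached 10 CPM only in cells with neither, so it had to differ and nothing is read from it.

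Among genes at 50 CPM or more in either class, the largest ratios of the Klrb1f-only cells were those of Ccl1, Serpina3f, Casp4, Serpina3g and Pdcd1. Casp4, an inflammatory caspase, was at 71.0 CPM against 15.9 CPM with neither, and was found in 182 of the 761 cells. Serpina3f, a serine protease inhibitor, was at 132 against 26.4 CPM, in 178 cells. The level of Ccl1, a chemokine, was 189 against 37.6 CPM, but its 1107 UMIs came from 35 cells. The genes with the lowest ratios were Ly6c1, Fgf13, Gm13822, Slc35f3 and Klf2, with Ly6c1, a surface protein of memory T cells, at 25.0 against 93.4 CPM. Among genes at 50 CPM or more in either class, the lowest ratios of Klrb1c-only cells were those of Chst2, Nav2, Furin, Ifngas1 and Stk32c, with Furin, a proprotein convertase, at 53.0 against 123 CPM.

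Set directly against the Klrb1c-only cells, Klrb1f-only cells had 2.54% of genes at least 2-fold higher and 2.08% at least 2-fold lower. The highest ratio among genes at 50 CPM or more in either class was that of Mki67, a gene of dividing cells. It was at 73.9 against 3.43 CPM, a log2 ratio of 4.43 (4.09 to 4.78), and so passed through the Klrb1f-only cells alone. Mki67 UMIs were found in 134 of 761 Klrb1f-only cells (17.6%), 50 of 3534 Klrb1c-only cells (1.41%), 22 of 444 cells with both (4.95%) and 205 of 4164 cells with neither (4.92%). Casp4, Ccl1, Casp1 and Serpina3f followed. Klrc1 had the lowest ratio, a log2 of -2.83, followed by Tyrobp, Fgf13, Klrc2 and Klf2.

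**Figure D3:**
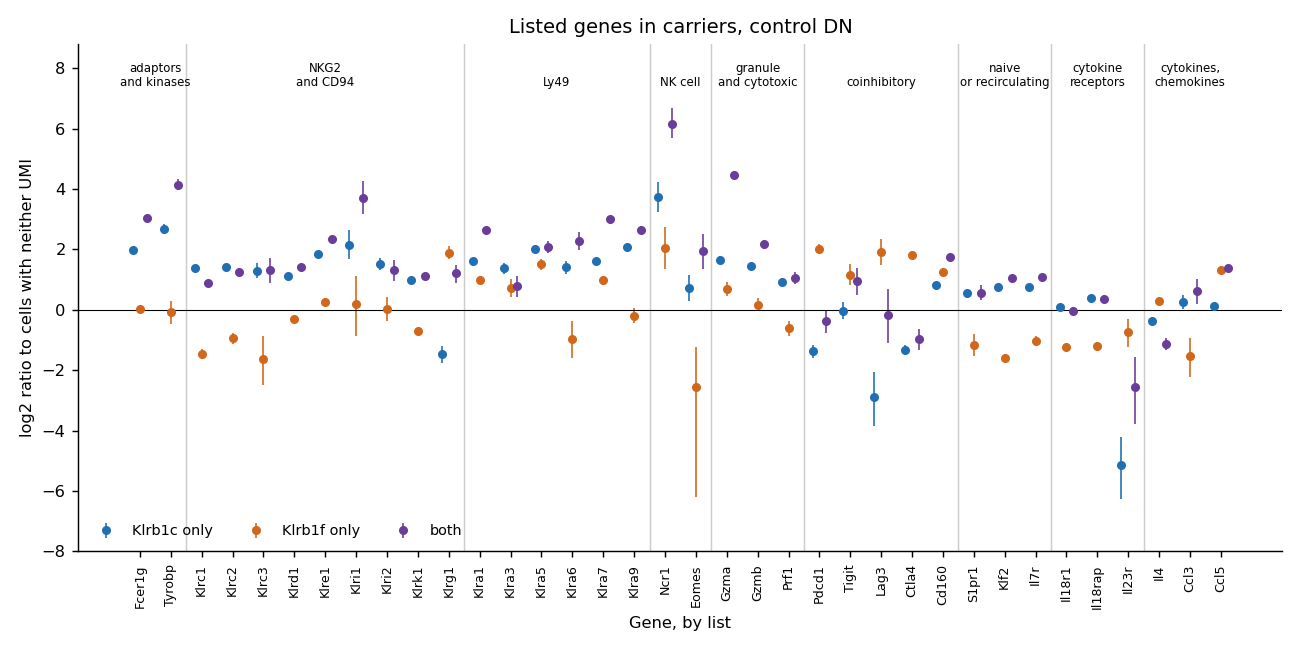
The log2 ratio of CPM over cells with neither gene is plotted for control DN T cells with Klrb1c only (blue), Klrb1f only (orange) and both (purple), for listed genes that differed at least 2-fold in any class; bars are exact 95% counting intervals, and some genes are low outside 1 class. NKG2 and Ly49 genes lay above 0 in Klrb1c-only cells apart from Klrg1 at -1.47, while Pdcd1, Lag3 and Ctla4 lay above 0 in Klrb1f-only cells and below 0 in Klrb1c-only cells.

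The 444 control DN T cells with both genes exceeded both single classes for several genes. At least 2-fold differences from cells with neither were seen for 1.25% of genes upward and 0.406% downward. Of the 8 NKG2 and CD94 genes 7 were higher, with a median log2 ratio of 1.29, and 5 of 6 Ly49 genes were higher, with a median of 2.46, beside -0.01 over all genes. Klrg1 was among the 7, at 34.7 CPM, while it was lower in Klrb1c-only cells. Klra7 was at 360 CPM in cells with both, 138 in Klrb1c-only, 88.2 in Klrb1f-only and 44.9 CPM in cells with neither. Zeb2, a transcription factor of late effector and NK cells, was at 120, 26.7, 46.0 and 28.6 CPM in that order. Ccl5, a chemokine of effector T and NK cells, was instead shared with the Klrb1f-only cells, at 3364 CPM with both, 3254 with Klrb1f only, 1430 with Klrb1c only and 1295 with neither.

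The highest ratio in cells with both, among genes at 50 CPM or more in either class, was that of Ncr1. This gene encodes NKp46, a receptor typical of NK cells, and it reached 50 CPM in no other class, so it had to differ. It was at 104 CPM against 19.2 in Klrb1c-only, 5.99 in Klrb1f-only and 1.46 CPM in cells with neither. Ncr1 UMIs were found in 93 of the 444 cells (20.9%), 142 of 3534 Klrb1c-only cells (4.02%), 14 of 761 Klrb1f-only cells (1.84%) and 17 of 4164 cells with neither (0.408%). Seen from the other side, 235 of the 266 cells with Ncr1 carried Klrb1c (88.3%), 107 Klrb1f (40.2%) and 93 both (35.0%), against 43.3%, 12.7% and 4.06% of the 8637 cells without Ncr1. All 266 had at least 2 UMIs of the T cell receptor genes, with a median of 45 against 43 in the other cells. Eomes, a transcription factor of NK and memory T cells, was at 11.5 CPM in cells with both and 2.99 CPM in cells with neither. Of these classes it reached 10 CPM in the first only. The rest of the NK cell list is not given here, so no NK cell identity is read from Ncr1 and Eomes.

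Of 9 listed granule genes 7 were at 10 CPM in the library, and 3 of these were at least 2-fold higher in cells with both, Gzma, Gzmb and Prf1, while Nkg7, Ctsw, Fasl and Serpinb9 were not. Gzma, which encodes granzyme A, was at 519 CPM against 74.5 in Klrb1c-only, 38.5 in Klrb1f-only and 23.7 CPM in cells with neither, and its 1900 UMIs in cells with both came from 54 cells. Gzmb, for granzyme B, was at 160, 97.3, 40.4 and 35.8 CPM. Il4, for the cytokine IL-4, was lowest in cells with both, at 59.3 CPM, against 99.8 in Klrb1c-only, 159 in Klrb1f-only and 130 CPM in cells with neither. Zbtb16, which encodes PLZF, the transcription factor of innate-like T cells, was at 178 CPM with both, 205 with Klrb1c only, 433 with Klrb1f only and 278 CPM with neither. Doublets were addressed only by leaving out the 5% of barcodes with most UMIs, and the part of doublets in the class with both was not tested.

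In the control CD4 library Klrb1c-only cells also had higher levels of NKG2 family genes than cells with neither. There 1.38% of genes were at least 2-fold higher than in cells with neither and 2.20% lower. Klre1 was at 107 against 13.0 CPM, Klrk1 at 459 against 79.3 CPM and Klrc1 at 246 against 34.7 CPM. In the list counts 5 of 6 NKG2 and CD94 genes were higher and 1 lower. Of the Ly49 genes only Klra1 was at 10 CPM in the library, at 42.3 CPM in Klrb1c-only cells against 6.24 CPM with neither. Fcer1g was at 45.4 against 6.74 CPM. Of 7 naive and recirculating genes 5 were lower, with Tcf7, a transcription factor of naive and memory T cells, at 74.8 against 236 CPM. Of 4 genes of regulatory T cells 2 were lower, Foxp3 at 4.08 against 21.7 CPM and Ctla4 at 36.0 against 151 CPM. The γ chain constant gene Tcrg-C4 was at 68.5 against 26.7 CPM, whereas Trdc had 1 UMI in the class and was at 3.86 CPM in cells with neither.

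Klrb1f-only cells of the control CD4 library differed from cells with neither at 0.420% of genes upward and 0.624% downward. None of 6 NKG2 and CD94 genes was higher, and 5 of 7 naive and recirculating genes were lower, or 3 with the other cells weighted for depth, where Lef1 and S1pr1 had log2 ratios of -0.93 and -0.96. Mki67 was at 51.0 CPM there, 15.9 in Klrb1c-only and 35.8 CPM in cells with neither. Gzma and Ccl1 headed the ratios among genes at 50 CPM or more in either class. The Gzma UMIs came from only 6 cells and the Ccl1 UMIs from 22. In the control CD8 library Klrb1f-only cells had 0.905% of genes at least 2-fold higher and 0.746% lower. The highest ratios there, by the same rule, were those of the cell division genes Cenpf, Birc5, Ube2c, Cdca8 and Nusap1. Each reached 50 CPM in Klrb1f-only cells and not in cells with neither, with Cenpf at 71.5 against 9.50 CPM. Their UMIs came from few of the 353 cells, between 15 cells for Cenpf and 35 for Cdca8, and Mki67 was at 118 against 35.9 CPM. Ccr7, St8sia1, Cmah and Sh3bp5 were among the lowest. Klrb1c-only cells of the control CD8 library were few, at 119, from a share below the pooled background, and had 2.22% of genes higher and 2.86% lower. By the same rule Klra5 led them at 85.2 against 0.778 CPM, so it passed through the Klrb1c-only cells, with its UMIs in 7 cells.

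In the IR group ratios are given for Klrb1c-only cells, since the Klrb1f-only classes held 87 cells or fewer. In the IR CD4 library they had 2.76% of genes at least 2-fold higher than cells with neither and 3.79% lower. Klre1 was at 90.4 against 13.4 CPM, Klrc2 at 103 against 17.6 CPM and Cd160, an HVEM receptor, at 97.3 against 16.1 CPM. The list counts were 5 of 6 NKG2 and CD94 genes higher and 1 lower, and 5 of 7 naive and recirculating genes lower. No Ly49 gene was at 10 CPM in this library. Foxp3 was at 2.30 against 30.9 CPM.

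In the IR DN library the ratios of Klrb1c-only cells had the same sign as in the control DN library for these receptors and were smaller. Fcer1g was at 514 against 225 CPM, Tyrobp at 104 against 37.7 CPM, Klre1 at 253 against 114 CPM and Gzma at 205 against 91.6 CPM. Klrc1 was at 355 against 239 CPM and Klrd1 at 689 against 521 CPM, both under 2-fold. Here 2 of 7 NKG2 and CD94 genes and 2 of 6 Ly49 genes, or 1 with depth weighting, were at least 2-fold higher and none lower, with 1.19% of all genes higher and 3.23% lower. Carriers missed at the lower depth of this library fall into the class with neither, and the part of depth in the size of these ratios was not tested. Klrb1b, the inhibitory receptor gene of the family, was at 28.5 against 11.9 CPM, and Pdcd1 at 9.11 against 27.3 CPM.

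The 52 Klrb1f-only cells of the IR DN library held 69979 UMIs, which put 1 UMI at 14.3 CPM.

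**Figure D4:**
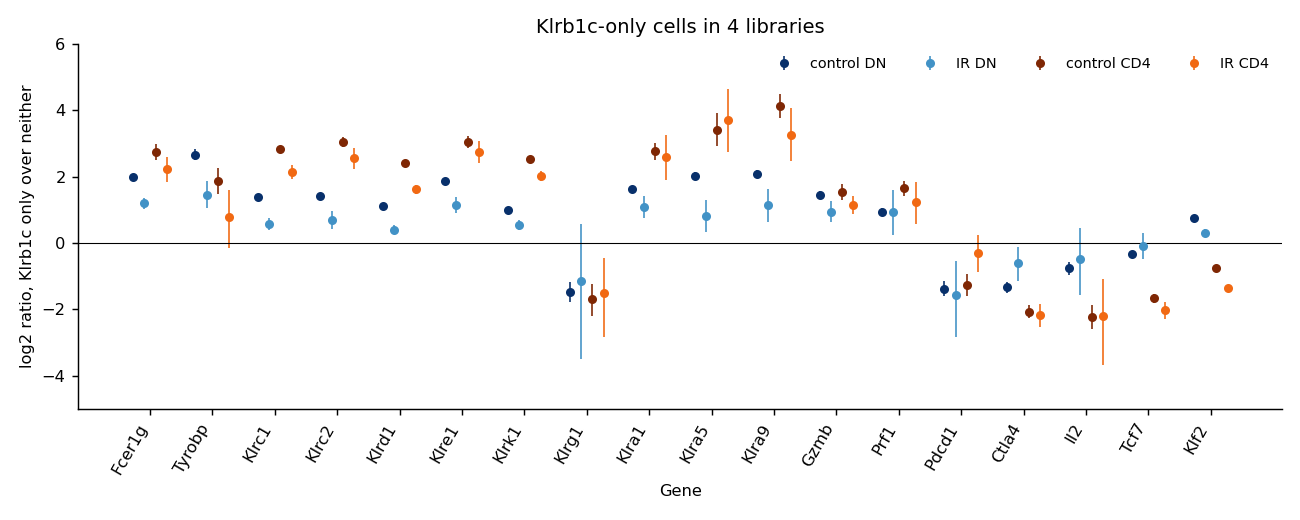
The log2 ratio of CPM in Klrb1c-only cells over cells with neither gene is plotted for selected listed genes in the control DN, IR DN, control CD4 and IR CD4 libraries, with exact 95% counting intervals. Fcer1g and the NKG2 and Ly49 genes lay above 0 in all 4 libraries, the Klrg1 points lay below 0 in all 4, with an interval across 0 in IR DN T cells, and Klf2 lay above 0 in DN T cells and below 0 in CD4 T cells.

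The other NKR-P1 receptors had lower counts. Klrb1b had 24.0 CPM in DN T cells of the control and 15.3 CPM in those of the IR group, 4.14 and 1.68 CPM in CD4 T cells, and at most 0.308 CPM in CD8 T cells. Klrb1a, an activating relative, was at 4.59 and 6.77 CPM in the DN libraries and at most 0.242 CPM elsewhere, with no UMI in IR CD4 T cells. In control DN T cells Klrb1a was at 22.1 CPM in cells with both genes against 1.83 CPM with neither, and Klrb1b at 43.2 against 17.2 CPM. The 18 windows that Klrb1a and Klrb1c shared lay in a run of 108 bases. This run began at base 209 of the 2623 bases of the main Klrb1c transcript, away from the 3′ end that gives the reads. How far these windows affect the counts was not tested.

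Clec2d, which encodes Clr-b, the ligand of NKR-P1B, was between 298 and 397 CPM in all 6 libraries. Clec2i, whose product Clr-g binds NKR-P1F, was at 67.3 CPM in CD4, 86.7 CPM in CD8 and 82.0 CPM in DN T cells of the control group, and at 35.6, 32.7 and 37.9 CPM in the IR libraries. Its log2 ratio of IR to control was -0.92 in CD4, -1.40 in CD8 and -1.11 in DN T cells, so that Clec2i and Klrb1f were both lower in the IR group in every subset. Within the control DN library Clec2i was at 77.0 CPM in Klrb1f-only cells and 75.1 CPM in cells with neither, and Clec2d at 362 and 341 CPM.

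**Figure D5:**
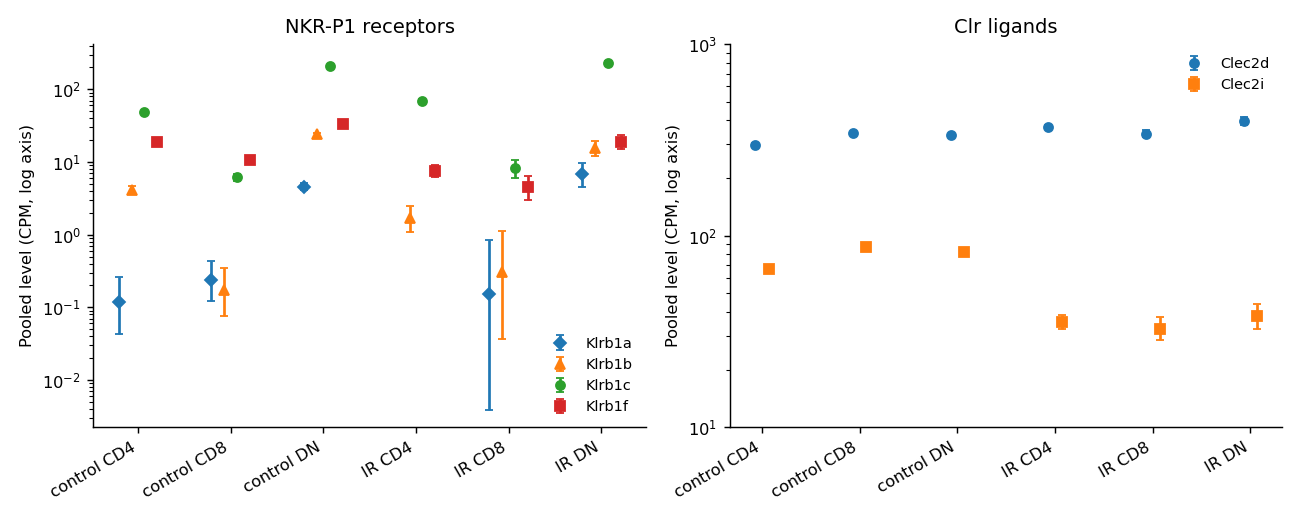
Pooled levels of the receptor genes Klrb1a, Klrb1b, Klrb1c and Klrb1f (left) and of the ligand genes Clec2d and Clec2i (right) are plotted as CPM on log axes for the 6 libraries, with exact 95% Poisson intervals; Klrb1a in IR CD4 T cells had no UMI and has no point. The receptors were highest in DN T cells, Clec2d stayed between 298 and 397 CPM, and Clec2i was between 32.7 and 37.9 CPM in the IR libraries against 67.3 to 86.7 CPM in the control libraries.

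Over the 6 libraries, the genes whose levels, as log2 of CPM plus 1, were most like those of Klrb1c among 9718 genes were Tcrg-V4 (Pearson r = 0.996), Sh3bgrl3 (0.988), Gm26759 (0.987), Rab4a (0.987) and Tcrg-C4 (0.985). For Klrb1f they were Ankrd13a (0.997), A330023F24Rik (0.995), Myo6 (0.989), Hexa (0.988) and Eif2ak3 (0.988). The correlation of Klrb1c with Klrb1f was 0.726. With 6 points that share the depth and software of their group, many genes reach such values, and they are given as a description.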

How the data were processed

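αβ T cells sorted from mouse kidneys were profiled with the 10x Genomics 3′ v3.1 chemistry, 1 library for each of the 6 groups. The deposited matrices hold raw UMI counts for every barcode, produced by the authors using Cell Ranger on mm10; the labels name version 6.0.1, while the matrix headers give 5.0.1 for the control and 6.0.1 for the IR libraries. Kept barcodes had 500 or more features and no more than 20% of UMIs from mitochondria, and in each library the deepest 5% were left out, after the study's methods; a further 257 barcodes with more UMIs of myeloid and B cell genes than of Cd3d, Cd3e, Cd3g, Trac, Trbc1 and Trbc2 were removed as not T, a rule chosen after seeing the data. In all, 104 features (Malat1 and the genes of mitochondria and ribosomal proteins) did not enter the totals, which were 4430706 to 60778003 UMIs in each library, so that 3 UMIs correspond to 0.0494 to 0.677 CPM.

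Levels are CPM of summed UMIs with exact Poisson intervals, ratios have exact conditional binomial intervals, and shares of cells have Clopper-Pearson intervals, all at 95%. UMIs of 1 cell are not independent samples of a mouse, so these cover counting error only. A gene was called at 2-fold or more with at least 10 CPM in the higher. List counts used genes at 10 CPM or more in the whole library, a choice made after the data were seen. In ratios, counts under 3 were set to a floor of 3. With 1 library per group no test was made. Shares were also computed with cells thinned to 500 or 1000 UMIs. Named genes were both members, members of the gene lists, the 5 highest and 5 lowest ratios per library and class at 50 CPM or more, and the 5 genes most correlated with each member at 10 CPM or more. The members and lists were chosen with earlier results of these data known. Of 32285 features 32235 matched GENCODE M21 by identifier. Alternatives covered scaling with TMM factors, the removed features, each filter, thinning, 2 or more UMIs for a carrier, depth weighting, and 2 chosen after seeing the data: barcodes removed as not T kept, and cells without a T cell receptor gene UMI left out. The class comparison was tested on simulated data. Python 3.11.15, numpy 2.4.6, pandas 2.3.3, scipy 1.17.1, matplotlib 3.10.9, R 4.3.3 and edgeR 4.0.16 were used. Some genes that the naming rule selects are not reported here, in the text or the plots.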

Additional observations from a re-analysis of the deposited data

How the results depend on the processing

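With 1 library per group no replicate could be left out, and no paired analysis was possible because each group has 1 library. The cause of the changes below was not tested. The Klrb1c log2 ratio of control DN over control CD4 T cells was 2.21 as a mean over cells, and that of IR DN over IR CD4 T cells was 1.88 with the removed features kept in the totals. The Klrb1c ratio of IR over control in CD4 T cells was 0.16 with those features kept and 0.40 relative to genes of like intron length. In DN T cells it was 0.012 with TMM scaling, 0.021 as a mean over cells and -0.052 with the features kept. The Klrb1f ratio in CD4 T cells was -1.66 with them kept. Shares moved with depth. In control DN T cells the Klrb1c share was 44.7% without thinning, 16.9% at 1000 UMIs, and, at 500 UMIs, 9.13% with no filter on cells and 1.33% when at least 2 of the 500 were required. In IR DN T cells it was 18.6% without thinning, 18.8% at 1000 UMIs, where 2118 of 4075 cells were deep enough to enter, and 1.25% for at least 2 of 500. The Klrb1f share was 13.5%, 2.66% and 0.0562% in control DN and 1.84%, 2.17% and 0% in IR DN T cells for no thinning, 1000 UMIs and at least 2 of 500 UMIs.

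The difference in Klrb1c share between Klrb1f carriers and other cells was -2.61 points in control DN T cells with thinning. In IR DN T cells it was -3.46 with thinning, with 2 of 31 carriers, and -4.55 for at least 2 UMIs of each gene without thinning, with 0 of 7. Where 0 carriers had Klrb1c the value is no comparison, as for -0.389 in control CD8 (52 carriers) and -0.315 in IR CD8 T cells (16) with thinning and -0.0628 in IR CD8 T cells (2) for at least 2 UMIs. In control CD4 T cells it turned to 0.376 with the deepest 5% of barcodes kept. At a minimum of 50 CPM, 14 genes were higher and 6 lower in Klrb1c-only control DN T cells, 42 and 23 in Klrb1f-only cells, and 38 and 5 in cells with both. With carriers defined by at least 2 UMIs the counts were 280 and 234 for Klrb1f only and 279 and 214 for both. Over the alternatives, of which 50 CPM gave the lowest counts, 10 to 197 genes were higher and 11 to 241 lower in Klrb1f-only control CD4 T cells (37 and 55 as reported), 46 to 135 and 66 to 228 in Klrb1c-only control CD4 T cells (122 and 194), and 10 to 523 and 11 to 348 in Klrb1c-only IR DN T cells (108 and 294). Listed genes at 10 CPM in the whole library that differed at least 2-fold in control DN T cells stayed so in the same direction with depth weighting, with at least 2 UMIs, and without shared barcodes or cells lacking a T cell receptor gene UMI, for 21 of 21 genes in Klrb1c-only and 16 of 16 in Klrb1f-only cells. In cells with both it was 26 of 26, but 25 with depth weighting. In Klrb1c-only IR DN T cells, 8 of 10 stayed with depth weighting and 8 with at least 2 UMIs. In control CD4 T cells with depth weighting 28 of 30 stayed for Klrb1c only and 12 of 15 for Klrb1f only.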
